A study of Mus musculus with 30 samples.

Results

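The transcripts of 8 genes of the Fc gamma receptor and ITAM pathway were followed through microglia and astrocytes sorted from mouse spinal cord: the activating receptor genes Fcgr1, Fcgr3 and Fcgr4, the inhibitory receptor gene Fcgr2b, the adaptor gene Fcer1g, the kinase gene Syk, the phospholipase gene Plcg2 and the inositol phosphatase gene Inpp5d. They were chosen by gene symbol among the protein-coding genes of the deposited annotation, and 8 of 8 were among the 30952 genes of the expression table. The groups were naive female C57BL/6 mice (n = 4 libraries per cell type), mice with experimental autoimmune encephalomyelitis (EAE) that received vehicle (EAE-vehicle, n = 6) and mice with EAE that received a RIPK1 kinase inhibitor named GSK'547 in the labels (EAE-RIPK1inh-1, n = 5). EAE, an autoimmune inflammation of the CNS, was induced in mice of 8 to 10 weeks. The paper describes the myelin peptide MOG35-55 in complete Freund's adjuvant, with pertussis toxin. Both EAE groups carried this immunization and the naive group did not. From a clinical score of about 1 the EAE mice were gavaged 2 times a day for 3 days, with 50 mg/kg of inhibitor or with 20% Captisol alone. Microglia had been gated as CD11b+CD45intCX3CR1+ and astrocytes as GLAST+CD11b-CD45-CD140a-, after a blocking step with an antibody to CD16 and CD32, the proteins of Fcgr3 and Fcgr2b.

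Fc gamma receptors bind the constant part of IgG and let myeloid cells take up and respond to antibody-coated targets. Activating receptors signal through an ITAM, a paired tyrosine motif that in the mouse sits on the shared adaptor FcRγ, the product of Fcer1g. Src family kinases phosphorylate the ITAM, Syk docks on it, and phospholipase Cγ2 (Plcg2) turns membrane lipid into calcium-releasing messengers. Fcgr2b carries an inhibitory motif (ITIM) instead, which recruits the phosphatase SHIP1 (Inpp5d) to shut the same signal down. The balance of activating over inhibitory receptors helps set how readily a myeloid cell answers immune complexes.

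Most of the receptor genes lie close together. Fcgr2b, Fcgr4, Fcgr3 and Fcer1g occupy 275749 bases of chromosome 1 (chr1:170958617-171234365, GRCm38), whereas Fcgr1 is on chromosome 3 (chr3:96282909-96293969), Syk on chromosome 13, Plcg2 on chromosome 8 and Inpp5d on chromosome 1 at chr1:87620312-87720507. The promoter windows of the 4 receptors (RefSeq, GRCm38.p6, 250 bases before to 50 after the annotated start) are printed below because the 4 genes behaved differently in EAE. Capitals mark matches, on either strand, to 3 motifs searched: GAAA followed after any 2 bases by GAAA, a core of the interferon-stimulated response element, TTCNNNGAA, the interferon-gamma-activated site, and GAGGAAGT, a core of the site of the myeloid factor PU.1. All 8 genes had at least 1 window.
Fcgr4 (chr1:171018676-171018975, plus strand): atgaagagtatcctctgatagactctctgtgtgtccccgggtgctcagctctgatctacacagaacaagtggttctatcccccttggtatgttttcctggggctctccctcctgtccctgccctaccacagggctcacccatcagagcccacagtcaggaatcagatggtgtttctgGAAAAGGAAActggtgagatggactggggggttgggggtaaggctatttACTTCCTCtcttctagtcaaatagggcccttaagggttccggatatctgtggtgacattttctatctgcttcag
Fcgr1 (chr3:96293920-96294219, minus strand): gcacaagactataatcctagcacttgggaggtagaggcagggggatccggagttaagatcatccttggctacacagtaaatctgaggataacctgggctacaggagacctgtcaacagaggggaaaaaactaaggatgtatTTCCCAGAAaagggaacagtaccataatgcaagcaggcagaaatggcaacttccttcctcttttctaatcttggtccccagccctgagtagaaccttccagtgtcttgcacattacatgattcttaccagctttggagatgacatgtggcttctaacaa
Fcgr3 (chr1:171059354-171059653, minus strand): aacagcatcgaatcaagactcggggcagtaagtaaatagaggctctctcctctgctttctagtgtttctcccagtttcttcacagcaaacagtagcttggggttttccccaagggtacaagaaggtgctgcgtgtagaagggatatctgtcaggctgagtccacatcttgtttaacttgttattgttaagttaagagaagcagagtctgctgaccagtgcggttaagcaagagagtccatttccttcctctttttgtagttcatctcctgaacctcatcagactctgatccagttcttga
Fcgr2b (chr1:170976022-170976321, minus strand): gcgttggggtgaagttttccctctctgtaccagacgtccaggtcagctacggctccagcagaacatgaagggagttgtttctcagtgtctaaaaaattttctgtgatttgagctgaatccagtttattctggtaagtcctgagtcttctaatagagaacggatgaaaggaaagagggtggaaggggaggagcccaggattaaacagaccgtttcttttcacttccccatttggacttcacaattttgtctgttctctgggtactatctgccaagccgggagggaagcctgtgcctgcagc

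The Fcgr4 window held GAAAAGGAAA, from 73 to 64 bases before the start, and ACTTCCTC, the PU.1 core read on the other strand, from 24 to 17 bases before it. The Fcgr1 window held TTCCCAGAA, from 109 to 101 bases before the start. The printed Fcgr3 and Fcgr2b windows held none of these letters. Of the windows not printed, that of Inpp5d held the PU.1 core GAGGAAGT, from 20 to 13 bases before the start, and the others held no match. Among all 32851 promoter windows of the same length, 3.44% held the first motif, 8.3% the second and 3.2% the third. A match describes the letters only and does not show a site in use.

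The coding sequences of Fcgr2b and Fcgr3, an inhibitory and an activating receptor, share a stretch that bears on how reads can be assigned. The longest identical run was 129 bases, all coding and spread over 2 exons in each gene, at chr1:170966674-170968081 in Fcgr2b and chr1:171054167-171057792 in Fcgr3, both on the minus strand.
Shared by Fcgr2b and Fcgr3: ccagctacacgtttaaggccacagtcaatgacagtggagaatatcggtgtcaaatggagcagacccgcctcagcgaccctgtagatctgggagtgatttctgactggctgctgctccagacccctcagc
Of the windows of 50 bases in protein-coding Fcgr3 transcripts, 10.2% also occurred in Fcgr2b, and 2.7% of the windows of 100 bases did, whereas 0 windows of 150 bases and 0 windows of any of these sizes of Fcgr1 or Fcgr4 were shared with another of the 4 receptors. The deposited annotation flags Fcgr3, Fcgr4, Fcgr2b and Plcg2 as confounded, as it does 15717 of all 30952 genes, and the effect of shared or overlapping sequence on their values was not tested.

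Values are log2 FPKM (fragments scaled to exon length and to library size), quantile-normalized by the authors over all 30 libraries, so the depth of a library is unknown. At the bottom of each library the values rise strictly with the row order of the table and so carry no ranking of their own, up to 0.0489 to 1.74 log2 FPKM in microglia and 0 to 2.74 in astrocyte libraries, and a gene in that stretch is said to have no signal even where its value is above 0. The number of genes with signal lay between 8710 and 20398 in microglia libraries and between 6728 and 22981 in those of astrocytes. It was under 10000 in naive microglia replicate 4, naive astrocyte replicate 2, EAE-vehicle astrocyte replicate 1 and EAE-RIPK1inh-1 astrocyte replicate 5. The labelled cell types carried their markers: 10 microglia genes averaged 7.60 to 10.60 in microglia libraries and 0.89 to 3.78 in astrocyte libraries, and 8 astrocyte genes averaged 7.65 to 9.46 in astrocyte libraries and 1.00 to 2.10 in microglia libraries. Genes of oligodendrocytes averaged 5.58 to 9.58 in astrocyte libraries, as given below by group. The libraries are of sorted bulk populations, so fewer cells of a type and less RNA per cell cannot be told apart. "Rose" and "fell" are used for a Benjamini-Hochberg adjusted p under 0.05 over all genes (limma), and "called" for the cutoff of the study, a fold change over 1.5 with an unadjusted p under 0.05.

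**Figure D1:**
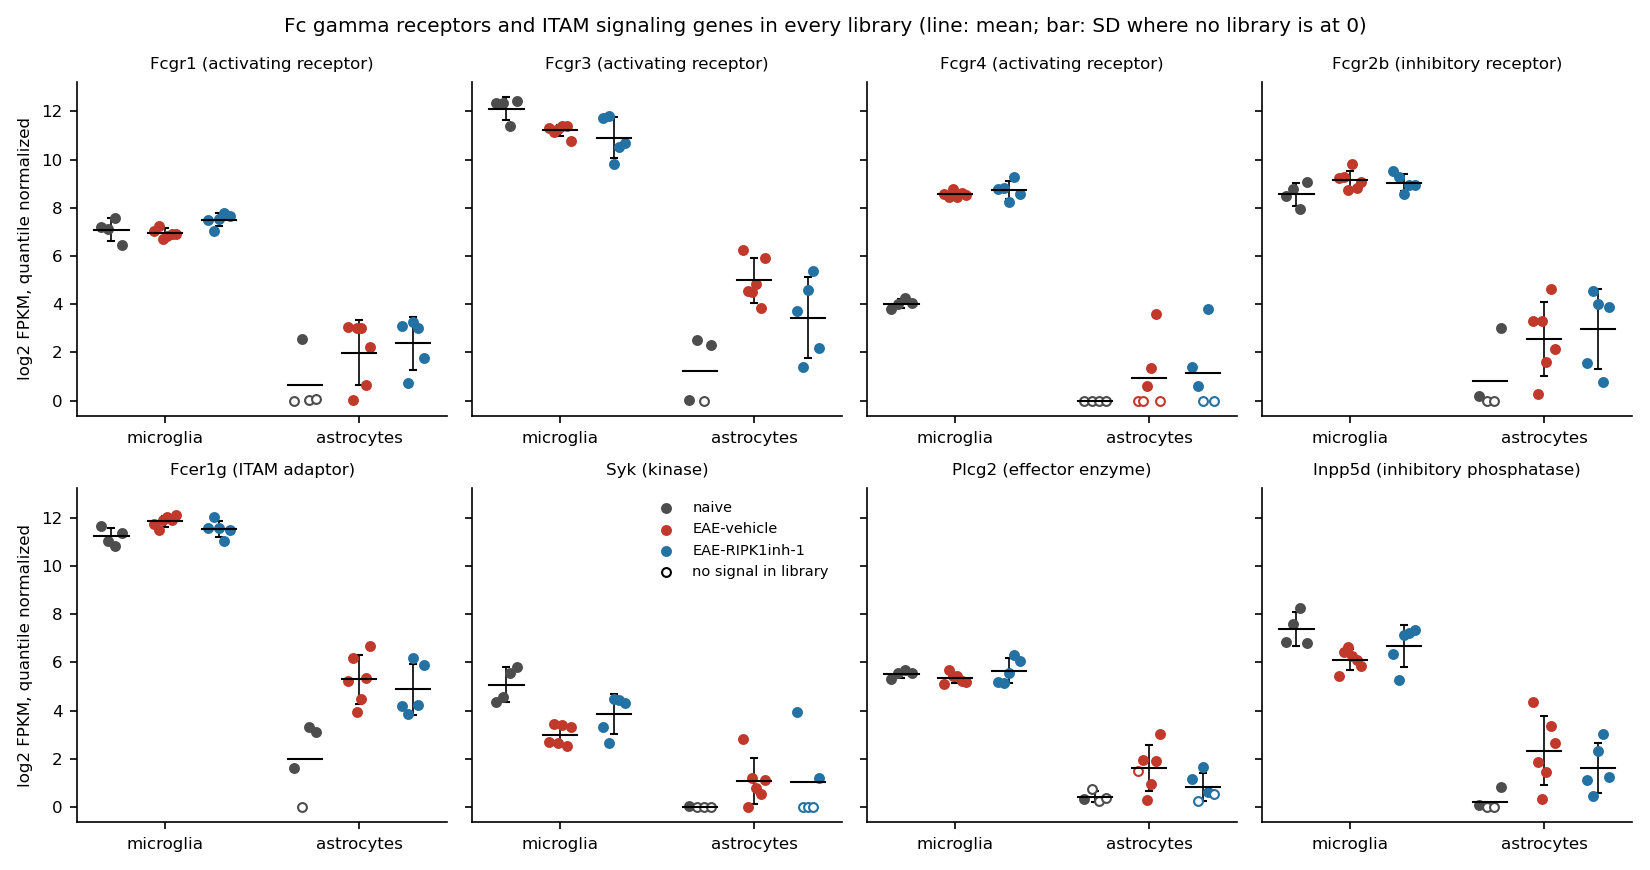
Log2 FPKM (vertical axis) of each gene in every library of microglia (left) and astrocytes (right). Grey points are naive, red EAE-vehicle and blue EAE-RIPK1inh-1, open points are libraries in which the gene had no signal (some of them above 0, as for Plcg2), the line is the mean and the bar the SD, drawn where no library is at 0. Fcgr4 sits between 3.79 and 4.27 in naive microglia and between 8.26 and 9.26 in microglia of both EAE groups.

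In naive microglia Fcgr3 had the highest level (12.11 ± 0.49 log2 FPKM, SD, n = 4), followed by Fcer1g (11.23 ± 0.35), Fcgr2b (8.56 ± 0.48), Inpp5d (7.38 ± 0.69), Fcgr1 (7.09 ± 0.47), Plcg2 (5.53 ± 0.15), Syk (5.08 ± 0.72) and Fcgr4 (4.02 ± 0.20). The ranges of Fcgr3 and Fcer1g overlapped, as did those of Fcgr2b and Inpp5d, of Inpp5d and Fcgr1 and of Plcg2 and Syk, whereas Fcgr4 lay below every library of Syk. In EAE-vehicle microglia the order was Fcer1g (11.86 ± 0.22, n = 6), Fcgr3 (11.21 ± 0.23), Fcgr2b (9.16 ± 0.38), Fcgr4 (8.56 ± 0.14), Fcgr1 (6.95 ± 0.19), Inpp5d (6.12 ± 0.42), Plcg2 (5.35 ± 0.21) and Syk (3.01 ± 0.42). Fcgr4 thus had the lowest mean of the 8 in naive microglia, whereas in EAE-vehicle microglia its range overlapped that of Fcgr2b and Syk had the lowest mean. The same order held in EAE-RIPK1inh-1 microglia (n = 5), from Fcer1g (11.53 ± 0.35) to Syk (3.85 ± 0.83).

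EAE-vehicle microglia were compared with naive microglia. The difference takes in the disease together with the adjuvant, the toxin and the vehicle dosing, which cannot be told apart here. No dosing is given for naive mice. Fcgr4, whose product binds IgG2a and IgG2b, rose about 23.3-fold, and Syk, the kinase that all activating receptors feed, fell to about 0.237 of its naive level. Of the 8 genes, 6 were called, 3 higher (Fcgr4, Fcgr2b, Fcer1g) and 3 lower (Fcgr3, Syk, Inpp5d), and 2 passed adjustment. Over all 28958 genes tested, 12% were called (6.13% higher and 5.86% lower) and 3.92% passed adjustment (2.37% higher and 1.56% lower). The median difference of the 8 genes was -0.16 log2 units, and that of all genes -0.02.

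Fcgr4 was at 3.79, 3.99, 4.27 and 4.05 log2 FPKM in naive replicates 1 to 4, and at 8.43 (lowest), 8.55 (median) and 8.78 (highest) in the 6 EAE-vehicle libraries. The groups did not overlap, and all 6 EAE-vehicle libraries lay above the naive range. The difference in log2 FPKM was 4.54 (SE 0.18, limma adjusted p = 1.24e-09, 95% interval of the fold 17.9 to 30.3), and the exact two-sided permutation test gave p = 0.00476, the smallest that 4 against 6 libraries can give. Leaving out each library in turn moved it between 4.46 and 4.62.

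The other activating receptors did not follow Fcgr4. Fcgr3, the low-affinity receptor CD16, was at 12.32, 12.32, 11.38 and 12.43 in naive replicates and at 10.79 (lowest), 11.28 (median) and 11.38 (highest) in EAE-vehicle libraries. Naive replicate 3 alone reached the EAE range. The difference was -0.90 (SE 0.35, limma adjusted p = 0.218, p = 0.0143 by exact permutation), which was called but did not pass adjustment. Fcgr1, the high-affinity receptor CD64, was at 7.21, 7.10, 7.58 and 6.46 in naive replicates and at 6.70, 6.93 and 7.26 (lowest, median, highest) in EAE-vehicle libraries, which lay within the naive range. Its difference of -0.14 had a 95% interval of -0.58 to 0.31.

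Fcgr2b, the inhibitory receptor, was at 8.48, 8.78, 7.94 and 9.06 in naive replicates and at 8.75, 9.14 and 9.80 (lowest, median, highest) in EAE-vehicle libraries, and the groups overlapped. The difference was 0.59 (SE 0.25, limma adjusted p = 0.299, p = 0.0571 by exact permutation). Fcer1g, the adaptor that Fcgr1, Fcgr3 and Fcgr4 share, was at 11.64, 11.04, 10.85 and 11.38 in naive replicates and at 11.48, 11.93 and 12.10 in EAE-vehicle libraries. Its difference was 0.64 (SE 0.20, limma adjusted p = 0.103, p = 0.0143 by exact permutation). Both were called and neither passed adjustment.

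Downstream of the receptors, Syk and Inpp5d lay lower in EAE. Syk was at 4.37, 4.57, 5.56 and 5.83 in naive replicates and at 2.52, 3.01 and 3.43 (lowest, median, highest) in EAE-vehicle libraries, and the groups did not overlap. It fell by 2.08 log2 units (SE 0.42, limma adjusted p = 0.00951, p = 0.00476 by exact permutation). Inpp5d was at 6.85, 7.58, 8.27 and 6.82 in naive replicates and at 5.46, 6.19 and 6.62 in EAE-vehicle libraries, again without overlap. Its difference was -1.27 (SE 0.41, limma adjusted p = 0.124, p = 0.00476 by exact permutation), and it did not pass adjustment. Plcg2 was at 5.31, 5.57, 5.68 and 5.55 in naive replicates and at 5.12, 5.33 and 5.68 in EAE-vehicle libraries, a difference of -0.18 with a 95% interval of -0.68 to 0.32.

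Among the calls that did not pass adjustment, Fcgr3 lost its call without naive replicate 1, 2 or 4 (-0.83, -0.83 and -0.80), Fcgr2b without naive replicate 1 or 3 (0.57 and 0.38) or EAE-vehicle replicate 1, 2 or 4 (0.58, 0.57 and 0.46), and Fcer1g without naive replicate 2 or 3 (0.57 and 0.51). Quality weights also ended the call of Fcgr3 (-0.88), and median centring that of Fcgr2b (0.58). Fcgr2b without naive replicate 3 moved by over 1.5 times. In limma, Fcgr4 kept an adjusted p under 0.05 in 25 of 25 alternatives and Syk in 24 of 25, the exception being quality weights for the libraries (adjusted p = 0.0536).

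**Figure D2:**
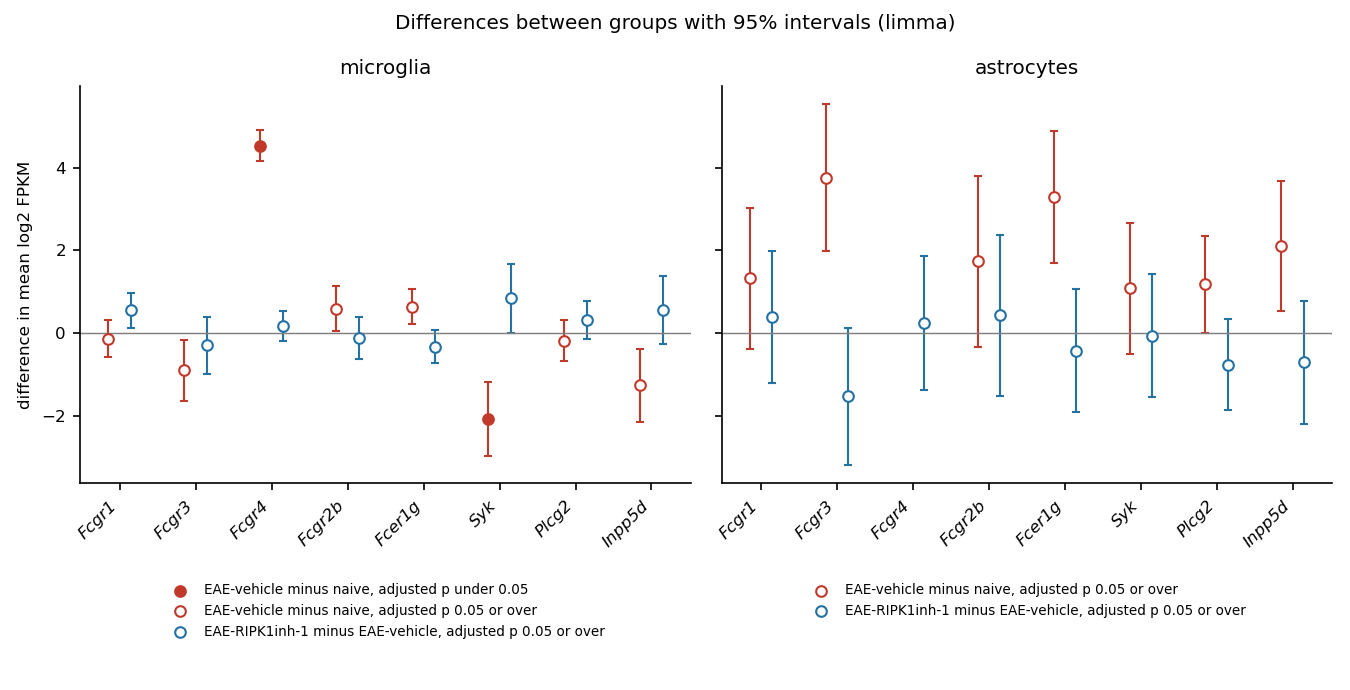
Differences in mean log2 FPKM (vertical axis) of the 8 genes with 95% intervals from limma, in microglia (left) and astrocytes (right). Red is EAE-vehicle minus naive and blue EAE-RIPK1inh-1 minus EAE-vehicle, and filled points have an adjusted p under 0.05. In microglia Fcgr4 (4.54) and Syk (-2.08) are the filled points, no blue point is filled, and Fcgr4 in astrocytes has no red point because all 4 naive libraries list it at 0.

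Markers of other myeloid cells moved with EAE in the same microglia libraries. Of 10 genes of monocytes and monocyte-derived macrophages, 4 rose (Fn1, Itgal, Ms4a4c and Arg1), and the highest means of the list in EAE-vehicle microglia were those of Chil3 (7.85), Ms4a4c (7.13) and Itgal (5.46). The summed FPKM of the list, taking 1 as the offset of the logarithm, was 17.7 to 835 in naive, 228 to 1518 in EAE-vehicle and 209 to 1674 in EAE-RIPK1inh-1 libraries, and Ccr2 and F10 had no signal in any naive library. The mean log2 FPKM of the list was 0.75 to 2.28 in naive, 3.33 to 6.07 in EAE-vehicle and 2.36 to 5.29 in EAE-RIPK1inh-1 libraries. Of 10 neutrophil genes 0 passed adjustment (1 was called, lower), and their summed FPKM was 356 to 17800 in naive, 389 to 11928 in EAE-vehicle and 233 to 35982 in EAE-RIPK1inh-1 libraries, led by S100a8, S100a9 and Ngp. The highest sums of naive and EAE-RIPK1inh-1 microglia were in replicate 3 of each, the libraries with the lowest Fcgr3 of their groups (11.38 and 9.83). In EAE-vehicle microglia replicate 3 also had the highest sum, but its Fcgr3 of 11.25 lay above the group's mean, and the lowest Fcgr3 (10.79) was in replicate 6, with a sum of 2239. Of 10 microglia genes 8 fell, and in EAE-vehicle libraries the mean was 9.08 for Csf1r and 8.63 for Tmem119. Of 8 genes of B cells and plasma cells 1 fell, and of 10 genes of T cells and NK cells 0 were called. Of 6 dendritic cell genes and 4 oligodendrocyte precursor genes 0 were called, and of 6 endothelial genes 1 fell. The part of other cells in the values of the receptor genes was not tested.

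The RIPK1 inhibitor was compared with vehicle in mice with EAE to ask what kinase inhibition did to these levels. In microglia 1 of the 8 genes was called, Syk, and 0 passed adjustment, where 1.76% of all 28958 genes were called (1.06% higher) and 1 gene (0.00345%) passed adjustment. Syk was at 3.31, 2.65, 4.49, 4.46 and 4.34 in EAE-RIPK1inh-1 replicates 1 to 5, so 3 libraries lay above every EAE-vehicle library and 2 within their range. The difference was 0.84 (SE 0.39, 95% interval 0.0048 to 1.68, limma p = 0.0489 and adjusted p = 0.930, exact permutation p = 0.0801). The call was lost without naive replicate 2 or 3 (0.84 in both), without EAE-vehicle replicate 1, 3, 5 or 6 (0.78, 0.77, 0.75 and 0.91) and without EAE-RIPK1inh-1 replicate 3, 4 or 5 (0.68, 0.69 and 0.72), as well as with the low-value filter, either other offset or median centring (0.72 to 0.91). In the same comparison 3 of 10 microglia genes were called higher and 0 passed adjustment (median difference 0.40), and of 10 genes of monocytes and monocyte-derived macrophages 0 were called (median -0.54). Their part in the values of Syk was not tested.

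Fcgr1 was at 7.51, 7.04, 7.53, 7.77 and 7.68 in EAE-RIPK1inh-1 libraries, 4 of them above the highest EAE-vehicle library (7.26). Its difference of 0.55 (SE 0.20, limma p = 0.0136 and adjusted p = 0.930, exact permutation p = 0.0108) stayed under the fold of 1.5 and was not called. It was called without EAE-vehicle replicate 2 (0.61) or EAE-RIPK1inh-1 replicate 2 (0.67), and with quality weights for the libraries in limma (0.68, adjusted p = 0.0482, which over all alternatives ran from 0.0482 to 1). Inpp5d was at 6.33, 5.28, 7.15, 7.24 and 7.33, with replicate 2 below and replicates 3 to 5 above the EAE-vehicle range, a difference of 0.55 with a 95% interval of -0.28 to 1.37. Inpp5d was called without EAE-RIPK1inh-1 replicate 2 (0.89) and with quality weights (0.96).

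For the other members the intervals of the inhibitor's difference in microglia included 0. Fcgr4 was at 8.78, 8.81, 8.26, 9.26 and 8.57 with the inhibitor, a difference of 0.17 (95% interval -0.18 to 0.53), which leaves room for a fold of 0.881 to 1.44. Fcgr3 was at 11.73, 11.81, 9.83, 10.52 and 10.67, a wider spread than under vehicle (SD 0.85 against 0.23), and its difference was -0.30 (-0.99 to 0.40). Fcgr2b was at 9.51, 9.26, 8.58, 8.94 and 8.93, a difference of -0.11 (-0.62 to 0.40). Fcer1g was at 11.57, 12.02, 11.57, 11.04 and 11.48 (-0.33, -0.72 to 0.07), and Plcg2 at 5.19, 5.17, 5.57, 6.33 and 6.07 (0.32, -0.15 to 0.78). Plcg2 was called with quality weights (0.66).

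Against naive mice, EAE-RIPK1inh-1 microglia had 3 of 8 genes called, where 10.1% of all genes were called and 2.73% passed adjustment: Fcgr4 (4.71, SE 0.18, limma adjusted p = 1.47e-09), Fcgr3 (-1.20, SE 0.36, adjusted p = 0.114) and Syk (-1.23, SE 0.43, adjusted p = 0.210). The exact permutation p was 0.00794, the smallest possible, for Fcgr4, 0.0476 for Fcgr3 and 0.0714 for Syk, and the call for Syk was lost with quality weights (-0.75). Fcgr4 rose in this comparison too, about 26.2-fold. Fcgr2b, not called (0.48), was called without naive replicate 4 (0.65) or EAE-RIPK1inh-1 replicate 3 (0.60). These values share the naive libraries with the comparison of EAE-vehicle with naive.

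The balance of activating over inhibitory receptors was followed within each library, as the level of each activating receptor minus that of Fcgr2b, with no test. The annotation gives an exon length of 5790 bases for Fcgr2b (7 transcripts) and 1256 for Fcgr4 (1 transcript). How far levels set side by side between genes depend on the transcripts expressed was not tested. In microglia Fcgr3 exceeded Fcgr2b by 3.55 ± 0.21 log2 units in naive (SD, n = 4), 2.05 ± 0.41 in EAE-vehicle (n = 6) and 1.87 ± 0.52 in EAE-RIPK1inh-1 mice (n = 5). Each EAE library lay below each naive library, the lowest naive difference being 3.37 and the highest EAE difference 2.57. Fcgr4 minus Fcgr2b was -4.54 ± 0.59 in naive microglia, -0.59 ± 0.50 in EAE-vehicle and -0.31 ± 0.39 in EAE-RIPK1inh-1 microglia. In 1 library of each EAE group the Fcgr4 value lay above that of Fcgr2b, by 0.03 in EAE-vehicle and 0.32 in EAE-RIPK1inh-1 mice. Fcgr1 minus Fcgr2b was -1.48 ± 0.93, -2.20 ± 0.38 and -1.54 ± 0.53, with overlapping groups. In astrocytes Fcgr3 minus Fcgr2b ran from -0.71 to 2.53 in naive, -0.79 to 4.27 in EAE-vehicle and -3.18 to 4.59 in EAE-RIPK1inh-1 libraries. These groups overlapped. Several astrocyte values of the receptors stood at 0, so such differences depend on the offset of the logarithm.

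The mean of the 3 activating receptors minus Fcgr2b was -0.82 ± 0.51 in naive, -0.25 ± 0.40 in EAE-vehicle and 0.01 ± 0.15 in EAE-RIPK1inh-1 microglia. Its group means were higher in EAE, whereas those of Fcgr3 minus Fcgr2b were lower. The EAE-vehicle range (-0.91 to 0.16) overlapped the naive range (-1.42 to -0.19), and the EAE-RIPK1inh-1 range was -0.17 to 0.25. On the log scale the mean of the 3 gives the low naive level of Fcgr4 the same weight as the high level of Fcgr3. As shares of the summed FPKM of the 4 receptors, taking 1 as the offset, Fcgr3 held 88.9% ± 2.4 in naive, 68.5% ± 3.7 in EAE-vehicle and 62.1% ± 10.9 in EAE-RIPK1inh-1 microglia. Fcgr4 held 0.33% ± 0.17, 11.0% ± 1.7 and 14.4% ± 5.4, and Fcgr2b 7.61% ± 0.98, 16.8% ± 3.9 and 17.1% ± 3.2. The inhibitory receptor and Fcgr4 thus both took larger shares in EAE libraries, and Fcgr3 a smaller one.

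**Figure D3:**
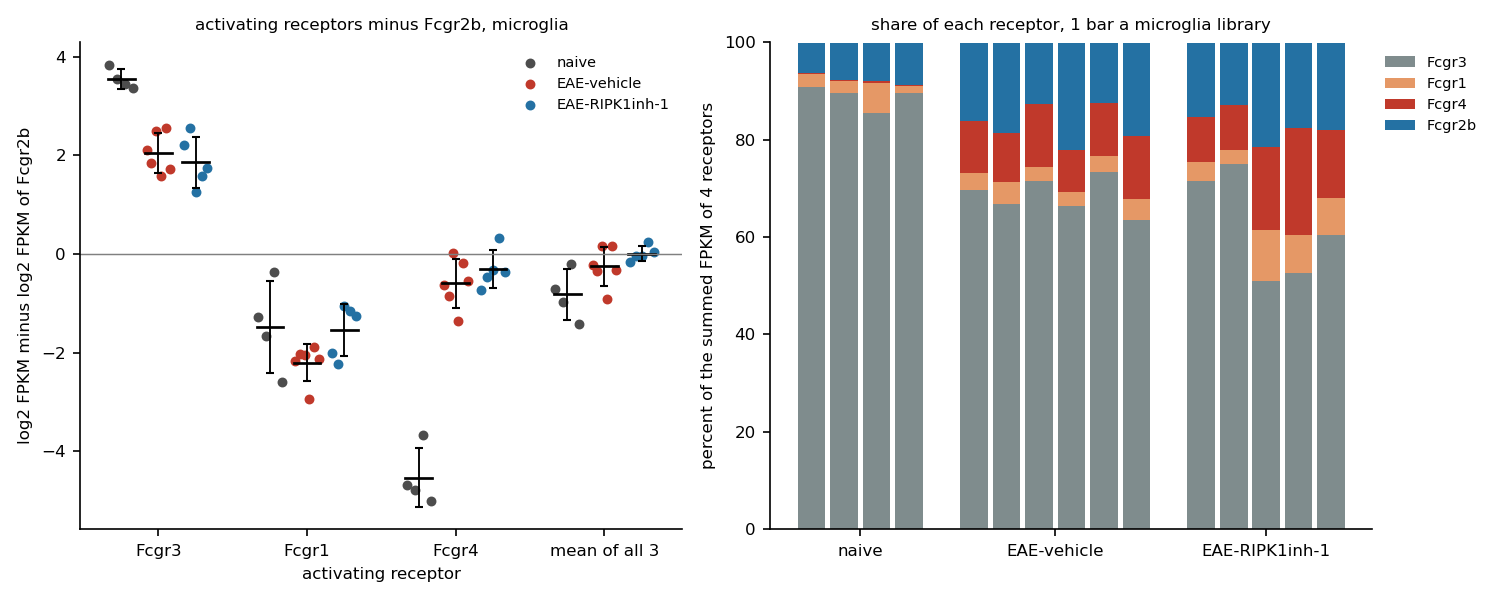
Left, log2 FPKM of each activating receptor, and of the mean of all 3, minus that of Fcgr2b in microglia (points are libraries, the line and bar the mean and SD). Right, percent of the summed FPKM of the 4 receptors in each microglia library. Fcgr3 minus Fcgr2b is 3.37 or more in naive and at most 2.57 in EAE libraries, and Fcgr4 is at most 0.58% of the sum in naive libraries and at least 8.57% in EAE-vehicle libraries.

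How the members varied together is given over the 15 microglia libraries as a description, since these fall into naive and EAE groups. The 3 protein-coding genes of a mean level of at least 3 with values most like those of Fcgr4 were Ifi211 (Pearson's r = 0.995), H2-Aa (0.991) and Il18bp (0.991), among 5700 genes compared. For Fcgr3 they were Tbpl1 (0.943), Calm2 (0.935) and Bcap31 (0.933), for Fcgr2b Arhgap15 (0.849), Samd9l (0.843) and H2-M3 (0.843), and for Fcgr1 Slc15a4 (0.885), Brk1 (0.868) and Cstf3 (0.843). Over the 11 EAE microglia libraries, Syk, Plcg2 and Inpp5d had r of 0.79 to 0.83 with each other. Fcgr1 had 0.82 with Syk, and Fcgr3 had -0.80 with Syk and Fcer1g -0.71. The r of largest size was -0.88, of Fcgr1 with Fcer1g, and Fcer1g had -0.80 with Plcg2. These values share libraries and their normalization.

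In astrocytes the 8 genes lay near the floor of the measurement in naive mice. Fcgr4 stood at 0 in each of the 4 naive libraries, and Syk had signal in 1, Fcgr1 in 1, Plcg2 in 1, Inpp5d in 2, Fcgr2b in 2, and Fcgr3 and Fcer1g in 3 of 4. All 8 were higher in microglia than in astrocytes and passed adjustment in each of the 3 conditions. Of all 30952 genes, 19.7% were called in naive, 22.4% in EAE-vehicle and 21.7% in EAE-RIPK1inh-1 mice (10%, 12.4% and 11.7% higher in microglia), and 11.9%, 13.8% and 13% passed adjustment (5.94%, 7.89% and 7.18% higher in microglia). The differences in log2 FPKM ran from 5.07 (Syk) to 10.89 (Fcgr3) in naive mice, leaving aside Fcgr4 with its astrocyte zeros, and from 1.91 (Syk) to 7.64 (Fcgr4) in EAE-vehicle mice.

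In EAE-vehicle against naive astrocytes 4 of 8 genes were called, all higher (Fcgr3, Fcer1g, Inpp5d and Plcg2), and 0 passed adjustment, where 6.71% of all 30718 genes were called (2.69% higher and 4.01% lower) and 0.579% passed. Fcgr3 was at 0.03, 2.53, 0.00 and 2.33 in naive replicates and at 3.83, 4.69 and 6.27 (lowest, median, highest) in EAE-vehicle libraries, which did not overlap. Its difference was 3.76 (SE 0.84, limma adjusted p = 0.0630, p = 0.00476 by exact permutation), and over all alternatives its adjusted p ran from 0.0121 to 0.236. Fcer1g was at 1.61, 0.00, 3.32 and 3.11 in naive replicates and at 3.93, 5.29 and 6.67 in EAE-vehicle libraries, also without overlap, with a difference of 3.30 (SE 0.75, limma adjusted p = 0.0709, p = 0.00476 by exact permutation). Fcgr3 and Fcer1g, the receptor and its adaptor, thus had the highest group means of the 8 in EAE-vehicle astrocytes, although in replicate 5 Fcgr2b (4.61) lay above Fcgr3 (3.83).

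Inpp5d was at 0.09, 0.00, 0.00 and 0.85 in naive replicates and at 0.34, 2.27 and 4.35 in EAE-vehicle libraries (difference 2.11, SE 0.74, limma adjusted p = 0.402), and Plcg2 at 0.33, 0.77, 0.27 and 0.39 and at 0.31, 1.72 and 3.06 (difference 1.18, SE 0.55, adjusted p = 0.710). Plcg2 had no signal in naive replicates 2, 3 and 4 and in EAE-vehicle replicate 1, so these values only follow the row order, and its call was lost with values without signal set to 0 (difference 1.29). The call was also lost with the low-value filter, an offset of 3, median centring or only the 2 groups (from 0.65 with that offset), without any 1 of the 4 naive libraries (1.12 to 1.29), without EAE-vehicle replicate 1, 2, 5 or 6 (0.89 to 1.20) and without EAE-RIPK1inh-1 replicate 1, 2, 4 or 5 (1.18 in each). Fcgr1 was called without naive replicate 2 (1.95) or EAE-vehicle replicate 2 (1.71), Fcgr2b without naive replicate 4 (2.48) or EAE-vehicle replicate 2 (2.19), and Syk without EAE-RIPK1inh-1 replicate 1 (1.08). Fcgr1 was also called with quality weights (1.84), and Fcgr2b (3.47) and Syk (3.09) with an offset of 0.1. Without the libraries of under 10000 genes with signal, 2 genes were called, Fcgr3 and Fcer1g. Fcgr4 had signal in 3 of 6 EAE-vehicle libraries, at 0.61, 1.34 and 3.59, and in 3 of 5 EAE-RIPK1inh-1 libraries, at 1.42, 0.60 and 3.82.

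Markers of leukocytes moved in the same direction in these astrocyte libraries. Of 10 genes of monocytes and monocyte-derived macrophages 7 were called higher in EAE-vehicle astrocytes and 0 passed adjustment, with Chil3 (6.30), Ly6c2 (5.16) and Itgal (3.94) the highest. Their summed FPKM was 1.25 to 26.2 in naive, 53.4 to 465 in EAE-vehicle and 26.3 to 944 in EAE-RIPK1inh-1 libraries. Of 10 genes of T cells and NK cells 5 were called higher and 0 passed adjustment, led by Trac (6.26), Cd3g (5.59) and Cd3e (4.83), with sums of 7.16 to 33.8, 44.5 to 811 and 60.5 to 702. Of 10 microglia genes 1 was called, with means of 3.61 for Csf1r and 2.49 for P2ry12 and sums of 49.7 to 108, 20.6 to 269 and 47.4 to 96.0. Of 9 neutrophil genes 1 was called higher in EAE-vehicle and 2 in EAE-RIPK1inh-1 against naive astrocytes, with 0 past adjustment and sums of 0.24 to 17.2 in naive, 30.4 to 259 in EAE-vehicle and 7.94 to 2118 in EAE-RIPK1inh-1 libraries. Of 8 astrocyte genes 5 were called lower in EAE-vehicle against naive astrocytes, 2 of them past adjustment, and 1 rose, with a median difference of -1.46 beside 0.03 for all genes. Genes of other neural cells were present too, with Mbp of oligodendrocytes at 13.71 and Nefl of neurons at 8.46 in EAE-vehicle astrocytes, and 3 of 7 oligodendrocyte genes (1 of which rose) and 1 of 6 neuronal genes were called higher. The 7 oligodendrocyte genes averaged 5.58 to 6.81 in naive, 6.45 to 9.58 in EAE-vehicle and 7.07 to 8.71 in EAE-RIPK1inh-1 astrocyte libraries. The 8 astrocyte genes averaged 8.87 to 9.46, 7.65 to 8.77 and 8.27 to 9.24 in these groups. The oligodendrocyte mean was the higher in EAE-vehicle replicates 2, 3, 5 and 6 and in EAE-RIPK1inh-1 replicate 4. The part of other cells in the astrocyte values was not tested.

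With the inhibitor 0 of 8 genes were called in astrocytes, where 3.02% of all genes were called, 998 had an unadjusted p under 0.05 and 0 passed adjustment (limma). Fcgr3 was at 3.72, 1.38, 4.58, 5.38 and 2.17, a difference from EAE-vehicle of -1.54 with a 95% interval of -3.21 to 0.13 (exact permutation p = 0.0866). Fcer1g was at 4.20, 3.88, 6.19, 4.24 and 5.90 (-0.43, -1.92 to 1.07), and Fcgr2b at 1.58, 4.56, 4.03, 0.79 and 3.89 (0.43, -1.52 to 2.38). Syk was at 3.94, 0.00, 0.00, 0.00 and 1.23. Fcgr3 was called without EAE-vehicle replicate 5 (-1.77) or EAE-RIPK1inh-1 replicate 3 or 4 (-1.82 and -2.02), and did not pass adjustment in any of 25 alternatives. The libraries do not tell apart the differences that lie within each of the intervals above. Against naive astrocytes, 3 of 8 genes were called with the inhibitor and 0 passed adjustment, Fcer1g (2.87, SE 0.78), Fcgr3 (2.23, SE 0.87) and Fcgr2b (2.16, SE 1.01), where 4.63% of all genes were called and 0.13% passed. The call for Fcgr3 was lost without naive replicate 1 or 3 (1.83 and 1.82) or EAE-RIPK1inh-1 replicate 3 or 4 (1.94 and 1.74). The call for Fcgr2b was lost without naive replicate 1, 2 or 3 (1.96, 1.89 and 1.89), EAE-vehicle replicate 1, 3, 4 or 6 (2.16 in each) or EAE-RIPK1inh-1 replicate 2, 3 or 5 (1.76, 1.90 and 1.93), and with the filter, values without signal at 0, an offset of 3, quality weights, only the 2 groups or without the low libraries (1.20 to 2.16). Fcgr1, not called (1.71), was called without naive replicate 2 (2.34), EAE-vehicle replicate 2 (1.71) or EAE-RIPK1inh-1 replicate 2 (2.12), with an offset of 0.1 (3.63), median centring (1.80) or quality weights (2.38), and without the low libraries (2.49). Inpp5d was called with an offset of 0.1 (3.29) or quality weights (1.67).

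The effect of EAE was compared between the cell types as an interaction term over all 30 libraries. The study gives the same numbers of mice for both cell types, and the fit took the libraries as independent because the labels do not say which of them share a mouse. Of 8 genes 6 were called and 3 passed adjustment, where 8.68% of all genes were called and 0.982% passed. The effect in microglia minus that in astrocytes was -4.67 for Fcgr3 (SE 0.89, limma adjusted p = 0.00626) and -3.37 for Inpp5d (SE 0.83, adjusted p = 0.0438), which had lower means in EAE microglia and higher means in EAE astrocytes. For Fcgr4 the term was 3.62 (SE 0.84, limma adjusted p = 0.0305), but its naive astrocyte libraries were all at 0, so its size rests on the offset of the logarithm. With an offset of 0.1 the term was 2.37 and was not called (limma adjusted p = 0.736). Fcgr3 and Inpp5d had 1 and 2 of 4 naive astrocyte libraries at 0, so the sizes of their terms depend on the offset too. Syk (-3.15, adjusted p = 0.0774), Fcer1g (-2.66, adjusted p = 0.0953) and Plcg2 (-1.36, adjusted p = 0.377) were called and did not pass adjustment. Fcgr1, not called (-1.46), was called without naive astrocyte replicate 2 (-2.09) or EAE-vehicle astrocyte replicate 2 or 5 (-1.85 and -1.73), with an offset of 0.1 (-2.93) and without the libraries of under 10000 genes with signal (-2.08), and it passed adjustment with quality weights in limma (-2.12, adjusted p = 0.0465, which over all alternatives ran from 0.0465 to 0.755). Over all alternatives the limma adjusted p ran from 0.0145 to 0.24 for Syk and from 0.0268 to 0.263 for Fcer1g, and Plcg2 lost its call with the low-value filter.

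The adjusted p of Fcgr3 stayed under 0.05 in 39 of 39 alternatives of the interaction term. That of Fcgr4 did so in 26 of 39. The settings that lost it included an offset of 0.1 and leaving out any 1 of the naive microglia, EAE-vehicle microglia replicate 3 or 5, naive astrocyte replicate 1, 3 or 4, EAE-vehicle astrocyte replicate 6, or the libraries of under 10000 genes with signal. That of Inpp5d did so in 17 of 39. The settings that lost it included leaving out any 1 of naive microglia replicates 1 to 3, EAE-vehicle microglia replicates 1 to 6, EAE-RIPK1inh-1 microglia replicates 1, 3, 4 and 5, naive astrocyte replicates 1 to 4 and EAE-vehicle astrocyte replicates 1, 5 and 6, or the libraries of under 10000 genes with signal. For the inhibitor's effect, 1 of 8 genes was called, Plcg2 (1.08, SE 0.52, adjusted p = 0.948), and 0 passed adjustment, where 3.15% of all genes were called. This call was lost with the filter, values without signal set to 0, an offset of 0.1, median centring or without the low libraries (0.99 to 1.57), and without any 1 of naive microglia replicates 1 to 4, EAE-vehicle microglia replicates 1, 3, 4, 5 and 6, EAE-RIPK1inh-1 microglia replicates 3, 4 and 5, naive astrocyte replicate 4, EAE-vehicle astrocyte replicates 2, 5 and 6 and EAE-RIPK1inh-1 astrocyte replicates 2, 4 and 5 (0.80 to 1.11).

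The wider pathway was described by lists of Fc receptors, kinases, adaptors, effectors and inhibitors, 109 of whose 116 genes were in the table. In microglia, 108 varied, and 5 rose and 11 fell in EAE-vehicle against naive mice, which is 16 of 108 against 3.92% of all genes. None of 7 Src family kinases was called. Of 7 other Fc receptor genes 2 fell, both members of the Fc receptor-like family: Fcrls, a marker of resting microglia, went from 9.36 ± 0.38 (n = 4) to 3.64 ± 1.13 (n = 6), a difference of -5.72 (SE 0.75, limma adjusted p = 0.000372), and Fcrl1 from 5.20 ± 0.62 to 1.43 ± 0.83 (-3.77).

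Of 16 other ITAM adaptors and ITAM-coupled receptors, 1 rose (Pilrb1, 2.78) and 1 fell. The latter was Trem2, a lipid-sensing receptor that signals through the ITAM of DAP12, which went from 10.65 ± 0.25 to 9.17 ± 0.30 (-1.48, SE 0.18, limma adjusted p = 0.000183). Among 41 adaptors and effectors downstream of Syk 3 fell and 0 rose: Blnk, the linker that brings phospholipase Cγ to Syk (8.06 ± 0.47 to 6.28 ± 0.37), Rasgrp3, a Ras activator driven by diacylglycerol (6.60 ± 0.41 to 5.03 ± 0.50), and Pik3cg, a phosphoinositide 3-kinase catalytic subunit (5.57 ± 0.21 to 4.43 ± 0.43). The median difference of this list was -0.41, beside -0.02 for all genes. Of 19 phosphatases and other inhibitors 2 fell, Pag1 (-2.03), an adaptor that holds the inhibitory kinase Csk at the membrane, and Ptprc (-0.75), which encodes CD45, a protein also used in the gates of both cell types.

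The 18 receptors with an ITIM went both ways, 4 up and 3 down. Cd300lf rose by 6.03 (SE 0.56, limma adjusted p = 1.4e-05), with naive libraries from 0, in 1 of them, to 4.26 and EAE-vehicle libraries from 7.84 to 8.67, and Lilrb4a, a leukocyte immunoglobulin-like receptor, went from 4.03 ± 0.78 to 8.89 ± 0.42 (4.86, SE 0.36). Klra2 (2.70) and Cd72 (2.62) rose as well. Pecam1 (-2.65), Siglece (-2.26), a sialic acid receptor, and Cd300a (-2.09) fell. With the inhibitor 3 of the 108 genes were called in microglia, all higher, where 1.76% of all genes were called (1.06% higher), and 0 passed adjustment. They were Itpr2 (1.22) and Btk (1.09), a calcium channel and a kinase downstream of Syk, and Cd300a (1.26).

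In astrocytes 24 of 108 pathway genes were called in EAE-vehicle against naive mice, 22 higher and 2 lower, and 0 passed adjustment, where 6.71% of all genes were called (2.69% higher and 4.01% lower) and 0.579% passed. The largest differences of each list were those of Lck (4.61) and Yes1 (-2.52) among Src family kinases, Tyrobp (3.77) and Itgb2 (3.66) among ITAM adaptors and coupled receptors, Rac2 (4.89) and Lat (4.72) among effectors, Sla and Ptpn6 (3.92) among inhibitors, and Lilrb4a (3.35) and Cd300lf (2.16) among receptors with an ITIM. Sla stood at 0 in each of the 4 naive libraries and had a median of 4.86 in EAE-vehicle astrocytes. Lck, Lat and Ptpn6 are genes of leukocytes, and these libraries had the leukocyte marker levels given above. The part of leukocyte RNA in the values of the pathway genes was not tested. With the inhibitor 0 of the 108 genes were called in astrocytes, where 3.02% of all genes were.

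**Figure D4:**
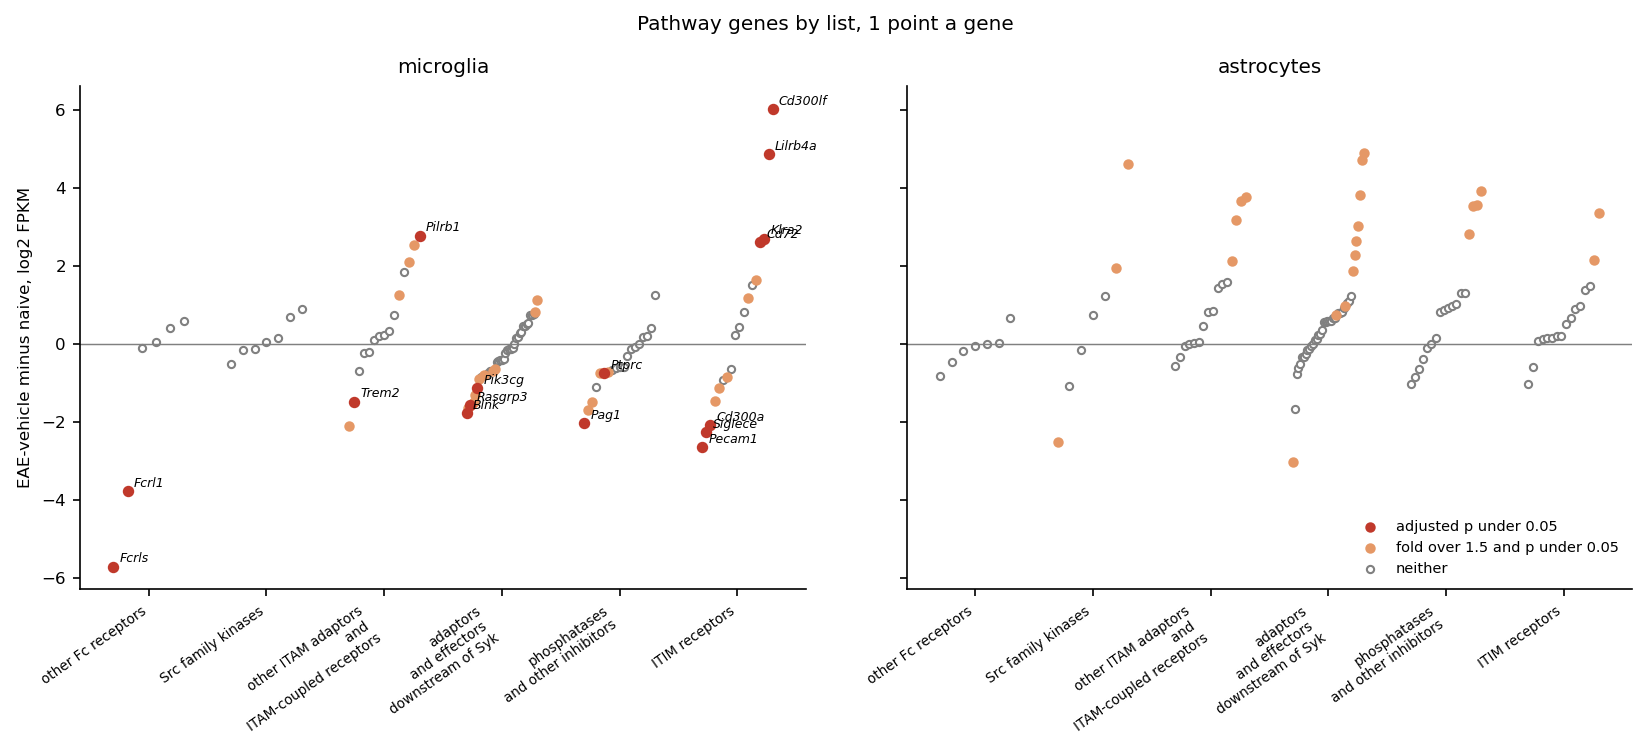
Difference in log2 FPKM between EAE-vehicle and naive mice (vertical axis) for each pathway gene, by list, in microglia (left) and astrocytes (right). Red points passed an adjusted p of 0.05, orange points were called only, open points were neither, and genes at 0 in every library of a group (3 in microglia, 5 in astrocytes) are left out. In microglia 5 genes lie above and 11 below 0 in red, and in astrocytes 0 are red.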

How the data were processed

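Astrocytes and microglia of 30 libraries were sorted from spinal cord, and mRNA was captured with oligo(dT) and sequenced. The authors deposited 1 table of log2 FPKM, made with OmicSoft Array Studio and quantile-normalized, in which every library holds the same sorted values from 0 to 15.34, with 7971 genes at 0. The aligner, gene model release and offset of the logarithm are not given in the sources used here, and no counts were used, so depth is unknown and no counting interval can be given.

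Groups came from the labels. limma 3.58.1 in R 4.3.3 was fitted on the log2 values with a variance trend, once per cell type over its 3 groups and once over all 30 libraries, with Benjamini-Hochberg adjustment over all genes that varied. The methods of the study name a paired t test, but the labels pair no samples, so fits were unpaired. Single genes were also tested by exact two-sided permutation over every split of the libraries compared. The code for it was checked against scipy 1.17.1 on random values. The study counts mice as its replicates, and the labels tie no library to a mouse. The script was tested on simulated data.

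The 8 genes, the pathway lists and the marker lists were chosen with earlier results of these data known. Named beside the 8 genes were, per pathway list and comparison, up to 4 genes in each direction that passed adjustment or, where none did, the 2 largest differences called, the 3 highest genes of marker lists and the 3 genes most correlated with each receptor. Mbp and Nefl were named after their values were seen, and 1 marker gene is not reported here. Marker lists covered microglia, astrocytes, monocytes and monocyte-derived macrophages, neutrophils, dendritic cells, B cells and plasma cells, T cells and NK cells, oligodendrocytes and their precursors, endothelial cells and neurons. Alternatives were a low-value filter (mean log2 of at least 1), values without signal set to 0, offsets of 0.1 and 3, median centring, no variance trend, quality weights, the replicate number as a block, only the 2 groups compared, each library left out, and, added after the data were seen, no libraries of under 10000 genes with signal.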

Additional observations from a re-analysis of the deposited data

Results flagged for a closer look

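In 6 of 47 groups of values of the 8 genes, 1 library stood apart from the rest by Dixon's criterion. Chance meets it in about 1 in 20 groups of normally distributed values. The astrocyte groups named below had libraries at 0, so this rate does not hold for them. Fcgr3 was at 11.38 log2 FPKM in naive microglia replicate 3, below the other 3 naive libraries. Of the others, 4 were single naive astrocyte libraries with a higher value than the rest: Fcgr1 at 2.55 in replicate 2, Fcgr2b at 3.04 and Inpp5d at 0.85 in replicate 4, and Syk at 0.0604 in replicate 1, where the other 3 libraries were at 0. Replicate 4 also had a summed FPKM of 6 endothelial genes of 263, against 1.87 to 4.18 in the other 3, whose part in its values was not tested. Fcgr4 was at 3.59 in EAE-vehicle astrocyte replicate 5, where the other 5 libraries reached at most 1.34.

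The effect of EAE differed between microglia and astrocytes by the interaction test for 3 genes, Fcgr3 (-4.67), Fcgr4 (3.62) and Inpp5d (-3.37), as microglia minus astrocytes on the log2 scale. The limma adjusted p stayed under 0.05 in 39 of 39 alternatives for Fcgr3, 26 for Fcgr4 and 17 for Inpp5d. The part of leukocyte RNA in the astrocyte values was not tested.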

How the results depend on the processing

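Counts of the 8 genes called at the cutoff of the study were compared with those under each alternative. With an adjusted p under 0.05 in its place, the count went from 6 to 2 in microglia for EAE-vehicle against naive, from 1 to 0 for the inhibitor against vehicle and from 3 to 1 for EAE-RIPK1inh-1 against naive, in astrocytes from 4 to 0 for EAE-vehicle and from 3 to 0 for EAE-RIPK1inh-1 against naive, and for the interaction from 6 to 3 for EAE and from 1 to 0 for the inhibitor. For the inhibitor in microglia the count was 0 with the filter, both offsets or median centring, 4 with quality weights, and 0 to 3 when libraries were left out in turn. In astrocytes it was 2 for EAE-vehicle without the libraries of under 10000 genes with signal, 5 for EAE-RIPK1inh-1 against naive with an offset of 0.1, and, leaving out libraries, 0 to 1 for the inhibitor against vehicle and 1 to 4 for EAE-RIPK1inh-1 against naive. For the interaction with the inhibitor it was 0 with the filter, values without signal at 0, an offset of 0.1, median centring or without the low libraries, and 0 to 2 leaving out libraries. The cause was not tested.

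Deviations of same-numbered libraries from their group means had r from -0.166 to 0.244 (41 pairs, 5 of them over 0.1). Differently numbered libraries were not compared, so these values do not settle whether samples are paired by the replicate number. With it as a block the count was 2 for EAE-vehicle against naive astrocytes (Plcg2 at 0.85 and Inpp5d at 1.95 lost their calls), 0 for the interaction with the inhibitor, 5 for EAE-vehicle against naive microglia (without Fcer1g, 0.58) and 2 for EAE-RIPK1inh-1 against naive astrocytes (without Fcgr2b, 1.80). The limma adjusted p of the interaction with EAE became 0.0528 for Fcgr4 and 0.109 for Inpp5d. No value that was called changed direction under any of these alternatives, and 11 values that were not called did, in 35 pairs of a value and an alternative. Differences that lie within the same interval given for astrocytes could not be told apart.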
